A study of Homo sapiens with 16 samples.

Results

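The APOBEC3 cytidine deaminases were followed across 8 human lymphoid cell lines before and after treatment with drugs that act on chromatin. The family was selected on measured values, because APOBEC3B answered the treatment differently in the 2 types of line, and its other members were included for their symbols alone. All probe sets annotated to APOBEC3A, APOBEC3B, APOBEC3C, APOBEC3F or APOBEC3G were kept, which gave 5 genes. Of these, 4 are among the 11963 genes of the array with a probe set of their own. A probe set is a group of short oligonucleotides that reads 1 transcript on the Affymetrix HG-U133A array. The 5 genes were read by 7 probe sets, of which 5 are annotated to 1 gene and 2 are shared. Whether a probe set also detects related members of the family was not tested. One shared probe set, 210873_x_at, is annotated to APOBEC3A and to the APOBEC3A_B hybrid gene, and the other, 214995_s_at, to APOBEC3F and APOBEC3G. APOBEC3D and APOBEC3H had 0 probe sets in the annotation.

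There were 4 groups with 4 arrays in each. The treated anaplastic large cell lymphoma (ALCL) lines were Karpas 299, SU-DHL-1, JB6 and FE-PD, which had received 1 µM of 5-aza-2'-deoxycytidine over 6 days and, in the final 24 hours, also trichostatin A at 625 nM. The same 4 ALCL lines formed the untreated ALCL group. The T-cell leukaemia or lymphoma lines Molt-4, Molt-3, Jurkat and CCRF-CEM were treated in the same way and were likewise read untreated. 5-aza-2'-deoxycytidine blocks DNA methyltransferases, so DNA methylation is lost as cells divide, and trichostatin A inhibits histone deacetylases. The design asks which genes respond to both drugs together, and no array held either drug alone. Each line stands for itself in 1 array per condition, so p-values measure the spread between lines, not between cultures of a line. Molt-3 and Molt-4 are known to derive from the same patient, and the T-cell fits and counts take them as separate lines. The T-cell p-values therefore treat related lines as independent.

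APOBEC3 enzymes convert cytosine to uracil in single-stranded DNA. They mutate the DNA copies of retroviruses and restrain the movement of retroelements, and their genes lie side by side on chromosome 22. In tumours APOBEC3B, a nuclear member, is known as a source of C-to-T and C-to-G mutations, whereas APOBEC3G and APOBEC3F act mainly in the cytoplasm of T cells, where they are packaged into virions of HIV unless the viral protein Vif removes them. Uracil left in DNA is cut out by UNG, the uracil-DNA glycosylase, and the gap is refilled by base excision repair.

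Levels are log2 values of the deposited table, on which a step of 1 is a doubling. Because probe sets differ in their affinity, no level is set against that of another probe set, and a percentile gives the share of the probe sets of 1 array that lie below a value. The labels held against 8 identity genes in the untreated lines. TNFRSF8 (CD30), CLU, GZMB and PRF1 were called higher in ALCL, and CD3E, CD3G, LCK and CD7 were called lower in ALCL. Treated arrays had a narrower spread of values (SD 1.59 to 1.80, against 1.83 to 1.93 on untreated arrays, lower in 8 of 8 lines). The 28S ribosomal RNA control read 12.05 to 14.26 on the treated arrays of Molt-3 and Molt-4, and of SU-DHL-1, FE-PD and JB6, against 6.81 to 8.15 on the treated arrays of Karpas 299, CCRF-CEM and Jurkat and 6.60 to 7.62 on the untreated arrays. The 3′ minus 5′ difference of ACTB, a measure of RNA integrity, was −0.37 to 0.70 on treated and −0.65 to −0.29 on untreated arrays, higher in 7 of 8 treated lines. Of 12 markers of B, myeloid, stromal, epithelial and erythroid cells, 9 had a probe set. Their summed linear level was 1377 to 1832 in treated ALCL, 1349 to 1636 in untreated ALCL, 967.9 to 1349 in treated T-cell and 791.1 to 972.9 in untreated T-cell lines. Within that list MS4A1 and COL3A1 rose with treatment in T-cell lines (by 1.06 and 0.55), and CSF1R was higher in ALCL, by 1.82 treated and 2.39 untreated. The part of these differences in the results that follow was not tested. These are bulk cultures, in which fewer cells with a transcript and less transcript per cell cannot be told apart.

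APOBEC3B, read by 206632_s_at, stood high in all 4 untreated ALCL lines and much lower in the same lines after treatment, while 3 of the 4 T-cell lines held it near the bottom of the array throughout. In treated ALCL lines its level was 5.51 in FE-PD, 5.09 in JB6, 5.24 in SU-DHL-1 and 7.23 in Karpas 299, against 9.17 in FE-PD, 7.72 in JB6, 8.53 in SU-DHL-1 and 8.80 in Karpas 299 untreated. The 4 treated values lie below all 4 untreated ones. On the linear scale, treated FE-PD was 12.6-fold below its untreated array, SU-DHL-1 9.78-fold, JB6 6.20-fold and Karpas 299 2.97-fold. Karpas 299 thus held the most APOBEC3B after treatment, and it is also the only ALCL line whose treated array lacked the rise of the 28S control. The part of that control in the result was not tested.

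In T-cell lines APOBEC3B was low before and after treatment in all but CCRF-CEM. Its level in treated T-cell lines was 5.72 in CCRF-CEM, 4.48 in Jurkat, 4.42 in Molt-3 and 4.73 in Molt-4, against 6.41 in CCRF-CEM, 4.19 in Jurkat, 4.47 in Molt-3 and 4.41 in Molt-4 untreated. CCRF-CEM was the T-cell line with the highest level in both conditions, and treated CCRF-CEM was 1.61-fold below its untreated array. Jurkat and Molt-4 were higher after treatment by 0.29 and 0.32, and Molt-3 differed by −0.05. Untreated Jurkat, Molt-3 and Molt-4 lay between 4.19 and 4.47, nearer to the lowest value anywhere in the table (3.36) than the size of any ALCL change.

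**Figure D1:**
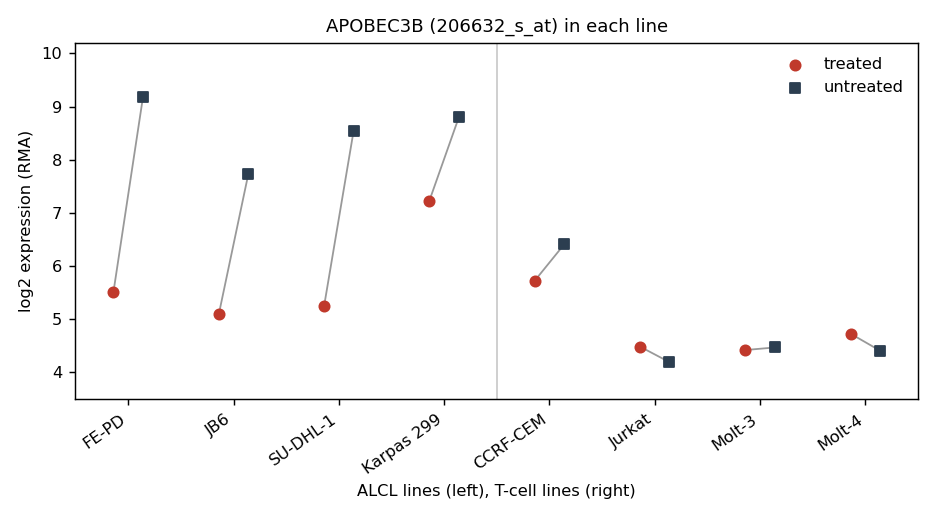
APOBEC3B level (log2, probe set 206632_s_at) in each of the 8 cell lines, with the treated array (circle) and the untreated array (square) of a line joined by a bar. All 4 ALCL lines are lower after treatment, Karpas 299 by the least, at 7.23 treated against 8.80 untreated, and among T-cell lines CCRF-CEM alone moves by more than 0.5.

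The mean change of APOBEC3B, treated minus untreated, was −2.79 ± 0.92 in ALCL lines and −0.03 ± 0.47 in T-cell lines (SD, n = 4 each). The difference between both changes was −2.76 ± 0.43 (SE, 95% confidence interval −3.72 to −1.80). These values chose the family, so they are a description and carry no p-value. Whether APOBEC3B was above background in Jurkat, Molt-3 and Molt-4 was not analysed. The floor may thus limit the T-cell change and the difference between both changes. Among 22215 probe sets the ALCL change ranked 19 from the lowest and the difference of changes 11 from the lowest. Over all probe sets 1.23% were called for that difference at an adjusted p below 0.05, and nothing is read from this about APOBEC3B, which it selected. Restricted to Karpas 299, CCRF-CEM and Jurkat, the 1 ALCL and 2 T-cell lines without the 28S rise, the difference of changes was −1.37.

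The ALCL arrays of APOBEC3B covered percentiles 12.8 to 57.3 (median 18.6) after treatment and 69.0 to 88.4 (median 81.7) untreated. Those of the T-cell lines covered 5.97 to 25.1 (median 7.66) treated and 5.49 to 41.2 (median 7.88) untreated. In untreated lines the order ran FE-PD, Karpas 299, SU-DHL-1, JB6, CCRF-CEM, Molt-3, Molt-4 and Jurkat, with all ALCL lines above all T-cell lines, a separation seen in 8.37% of all probe sets. The last 3 lines, at 4.19 to 4.47, lay closer to each other than the SD within either untreated group (0.61 in ALCL and 1.03 in T-cell lines). In treated lines that separation was gone, since FE-PD, JB6 and SU-DHL-1 all lay below CCRF-CEM. The ALCL minus T-cell difference was 0.93 ± 0.49 treated and 3.69 ± 0.52 untreated (SE, description only). Treated below untreated in all 4 ALCL lines with no overlap held for 8.10% of all probe sets.

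APOBEC3G, the member best known for restricting HIV in T cells, has 2 probe sets of its own, and 1 of them, 204205_at, fell in both types of line while the other did not pass in either. Probe set 204205_at read 4.83 in FE-PD, 4.46 in JB6, 4.28 in SU-DHL-1 and 5.62 in Karpas 299 treated, against 6.47, 5.41, 5.44 and 7.18 in the same ALCL lines untreated. It read 4.43 in CCRF-CEM, 4.22 in Jurkat, 4.38 in Molt-3 and 4.29 in Molt-4 treated, against 6.15, 4.94, 5.50 and 5.31 in the same T-cell lines untreated. All 8 lines were lower after treatment, a pattern shown by 13.0% of all probe sets. The treated T-cell values lay below all untreated ones without overlap, as did 14.5% of all probe sets, whereas the ALCL ranges overlapped because treated Karpas 299 exceeded untreated JB6 and SU-DHL-1. The change was −1.33 ± 0.17 in ALCL lines (SE, limma adjusted p = 0.00143, lower in 4 of 4 lines), a 2.51-fold fall. In T-cell lines it was −1.15 ± 0.17 (limma adjusted p = 0.0015, lower in 4 of 4 lines), a 2.21-fold fall. Treated arrays placed 204205_at at percentiles 4.59 to 23.0 in ALCL and 3.97 to 6.72 in T-cell lines. Untreated arrays placed it at 20.8 to 57.2 and 14.6 to 35.7. Whether the treated values were above background was not analysed, so the floor may limit the size of both falls and their likeness. The difference between both changes was −0.18 ± 0.25 (95% confidence interval −0.74 to 0.37), an interval that holds 0 and also a difference of over 0.7. In the lines without the 28S rise, the changes were as large, at −1.56 in Karpas 299, the 1 ALCL line among them, and −1.22 in CCRF-CEM and Jurkat. The fit of these 3 lines alone called neither (limma adjusted p = 0.218 in ALCL and 0.0707 in T-cell lines), and with so few pairs that says nothing on stability.

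The probe set shared by APOBEC3F and APOBEC3G, 214995_s_at, moved with 204205_at. Treated ALCL lines read 6.34 in FE-PD, 6.30 in JB6, 6.21 in SU-DHL-1 and 6.94 in Karpas 299, against 7.78, 6.23, 6.99 and 8.11 untreated. Treated T-cell lines read 6.20 in CCRF-CEM, 5.91 in Jurkat, 6.20 in Molt-3 and 6.24 in Molt-4, against 7.17, 6.55, 6.91 and 6.65 untreated. JB6 differed by 0.07 and stood apart from the other lines, which were all lower, so that the ALCL groups overlapped and the T-cell groups did not. The change was −0.83 ± 0.22 in ALCL lines (SE, limma adjusted p = 0.0267, lower in 3 of 4) and −0.68 ± 0.22 in T-cell lines (limma adjusted p = 0.0327, lower in 4 of 4).

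With single lines left out, the change of 214995_s_at stayed below 0, at −1.13 to −0.63 in ALCL and −0.78 to −0.59 in T-cell lines, but the calls were near the threshold. The ALCL call was lost without FE-PD (−0.63, limma adjusted p = 0.0785), SU-DHL-1 (−0.85, 0.0812) or Karpas 299 (−0.72, 0.0857). The T-cell call was lost without CCRF-CEM (−0.59, limma adjusted p = 0.0998), Jurkat (−0.70, 0.075), Molt-3 (−0.67, 0.104) or Molt-4 (−0.78, 0.0665). Over the 16 arrays its level correlated with 204205_at at r = 0.948, as a description, since the arrays share lines and treatments and the probe set can read both transcripts.

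APOBEC3F has 1 probe set of its own, 214994_at, and that probe set barely varied. Its levels ran from 5.00 to 5.75 in treated ALCL, 5.10 to 5.76 in untreated ALCL, 4.97 to 5.13 in treated T-cell and 5.00 to 5.41 in untreated T-cell lines, so the groups overlapped. The change was −0.09 ± 0.11 in ALCL lines (limma adjusted p = 0.589) and −0.10 ± 0.11 in T-cell lines (limma adjusted p = 0.474), with intervals of −0.35 to 0.17 and −0.36 to 0.15. These intervals do not reach the changes measured by the shared probe set, −0.83 and −0.68. Every array placed 214994_at between percentiles 12.2 and 27.1, and changes of dim probe sets are compressed. Whether it was above background was not analysed, so its flatness does not show that APOBEC3F was unchanged. JB6 had the highest APOBEC3F level of the 8 lines both treated (5.75) and untreated (5.76).

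The second probe set of APOBEC3G, 215579_at, did not follow the first. It read 7.69 in FE-PD, 8.63 in JB6, 7.58 in SU-DHL-1 and 7.68 in Karpas 299 treated, against 7.82, 8.35, 7.44 and 7.46 in the same ALCL lines untreated. T-cell lines read 7.33 in CCRF-CEM, 7.59 in Jurkat, 7.81 in Molt-3 and 7.70 in Molt-4 treated, against 7.21, 7.49, 7.27 and 7.28 untreated. The 2 probe sets thus differed in direction, with 215579_at higher after treatment in 7 of 8 lines and 204205_at lower in 8 of 8. The change of 215579_at was 0.13 ± 0.12 in ALCL lines (limma adjusted p = 0.465) and 0.30 ± 0.12 in T-cell lines (limma adjusted p = 0.0762), neither past the threshold. Under spike centring these were −0.43 and −0.37, also not called. Over the 16 arrays its level correlated with 204205_at at r = −0.23 and with the APOBEC3F probe set 214994_at at r = 0.797, again as a description of arrays that share lines. JB6 was highest on 215579_at as on 214994_at. Which transcripts 215579_at detects was not tested, and a single value for APOBEC3G would depend on the probe set taken.

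APOBEC3C, a member expressed in many tissues, also fell in T-cell lines. Its probe set 209584_x_at read 6.52 in FE-PD, 6.90 in JB6, 6.70 in SU-DHL-1 and 6.90 in Karpas 299 treated, against 8.26, 6.87, 7.28 and 7.89 in the same ALCL lines untreated. Treated T-cell lines read 5.95 in CCRF-CEM, 5.92 in Jurkat, 5.99 in Molt-3 and 6.07 in Molt-4, against 6.98, 6.04, 7.00 and 7.03 untreated. CCRF-CEM, Molt-3 and Molt-4 moved alike, by about 1, and Jurkat, already low, differed by −0.13. Among ALCL lines FE-PD differed most (−1.75) and JB6 least (0.03), so the ALCL groups overlapped.

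The change of APOBEC3C was −0.78 ± 0.26 in T-cell lines (SE, limma adjusted p = 0.0393, lower in 4 of 4 lines). It was −0.82 ± 0.26 in ALCL lines (limma adjusted p = 0.055, lower in 3 of 4 lines), which did not pass the threshold. The changes were of like size, and their difference was −0.04 ± 0.37 (95% confidence interval −0.86 to 0.78). Differences of either sign within that interval are not excluded. The T-cell call was lost without SU-DHL-1 (limma adjusted p = 0.0504), Karpas 299 (0.0507), CCRF-CEM (0.107), Molt-3 (0.138) or Molt-4 (0.134). The ALCL change lay at the threshold and passed in 8 of 18 alternatives, among them quantile normalization (limma adjusted p = 0.0435), median centring (0.0441), spike centring (0.00858) and a random block for the line (0.0256). It also passed without JB6 (limma adjusted p = 0.0296) or Jurkat (0.0493), and was −0.51 without FE-PD (0.141).

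APOBEC3A, an interferon-induced member of monocytes and keratinocytes, varied little over the arrays. Its probe set 210873_x_at, shared with APOBEC3A_B, ran from 4.19 to 4.34 in treated ALCL, 4.10 to 4.50 in untreated ALCL, 4.20 to 4.34 in treated T-cell and 4.09 to 4.24 in untreated T-cell lines. Every array placed it between percentiles 3.70 and 7.87. The change was −0.03 ± 0.12 in ALCL lines (limma adjusted p = 0.865) and 0.11 ± 0.12 in T-cell lines (limma adjusted p = 0.452). Whether this probe set was above background was not analysed here, so its flatness does not show that APOBEC3A was at an unchanged level.

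**Figure D2:**
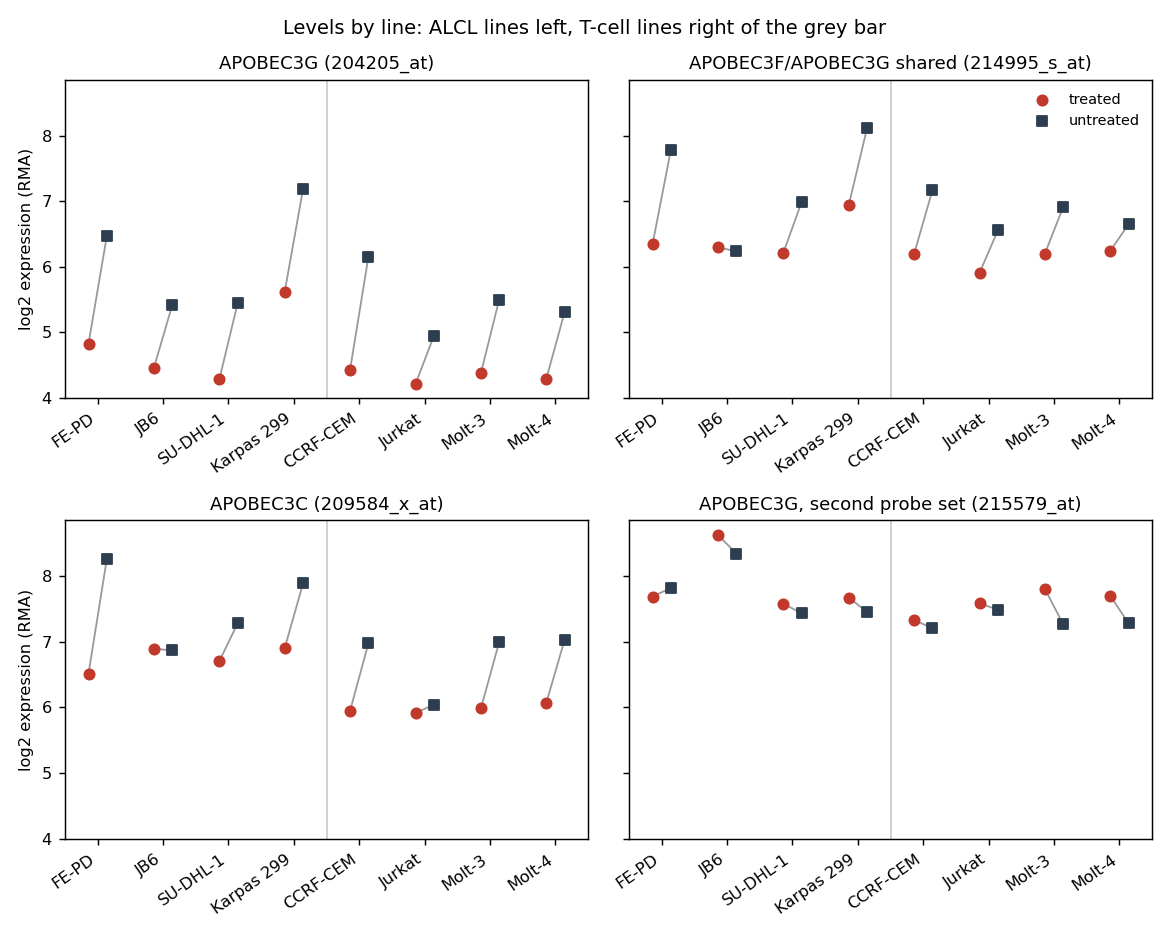
Level (log2, vertical axes) of 4 APOBEC3 probe sets in each of the 8 cell lines, with the treated array (circle) and the untreated array (square) of a line joined by a bar. APOBEC3G 204205_at is lower after treatment in 8 of 8 lines, APOBEC3C and the shared APOBEC3F and APOBEC3G probe set in 7 of 8, and 215579_at is higher in 7 of 8.

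Counted together, of the 6 member probe sets other than APOBEC3B, 2 fell and 0 rose in ALCL lines, where 11.6% of all probe sets fell and 6.69% rose. In T-cell lines 3 fell and 0 rose, where 18.4% fell and 20.4% rose. At an unadjusted p below 0.05 the counts in either direction were 3 in ALCL and 4 in T-cell lines. The T-cell count includes the rise of 215579_at (0.30, limma unadjusted p = 0.0351). The share of all probe sets at that threshold was not computed, so nothing is read from these counts. The median change of the 6 was −0.46 in ALCL and −0.39 in T-cell lines, beside 0.08 and 0.13 for all probe sets. APOBEC3G alone is read by 2 of the 6, and 1 more reads it in part, so the count is not one of separate genes. When each array was centred on the hybridisation spike controls the median of all probe sets became −0.48 in ALCL and −0.53 in T-cell lines. The 3 falling probe sets kept their direction under that scaling, and so did APOBEC3B in ALCL lines, whereas the APOBEC3B change in T-cell lines became −0.70.

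**Figure D3:**
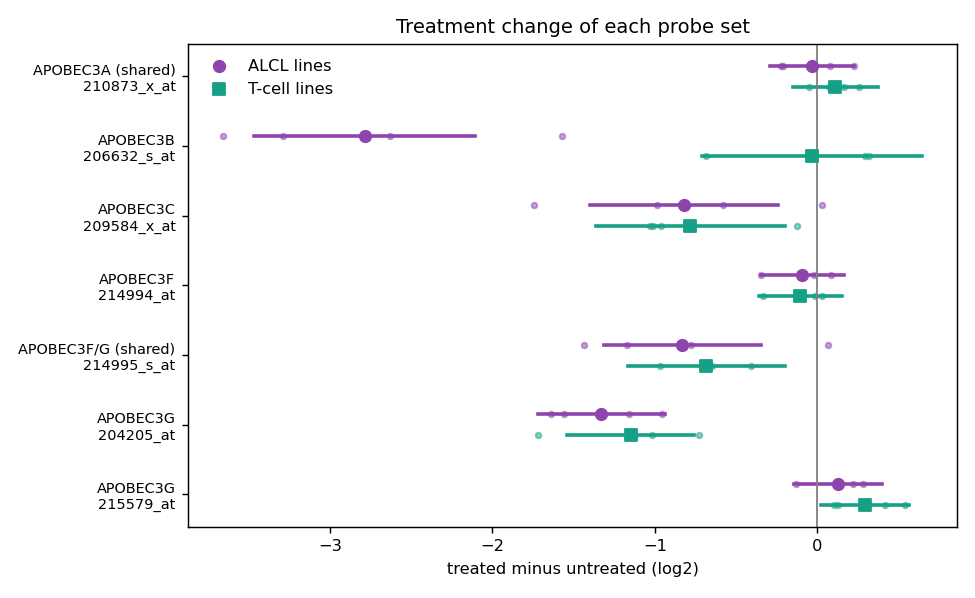
Change in log2 level, treated minus untreated (horizontal axis), of each of the 7 APOBEC3 probe sets, with ALCL lines above T-cell lines: small points are the 4 lines, the large symbol is the estimate and the bar its 95% confidence interval. APOBEC3B, whose difference between the types chose the family, lies at −1.57 to −3.66 in ALCL and −0.68 to 0.32 in T-cell lines. The intervals of the other 6 probe sets overlap between the types.

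The levels of the other members were then compared between ALCL and T-cell lines. In treated lines APOBEC3C was higher in ALCL, at 6.52 to 6.90 against 5.92 to 6.07 in T-cell lines, by 0.77 ± 0.13 (SE, limma adjusted p = 0.0235, n = 4 each). All treated ALCL lines lay above all treated T-cell lines, which 4.09% of probe sets did. It was the 1 called of 6 member probe sets, beside 1.10% of all probe sets called higher and 1.17% called lower in treated ALCL. That call was lost without SU-DHL-1 (limma adjusted p = 0.0521), Karpas 299 (0.0661), CCRF-CEM (0.077), Jurkat (0.0645) or Molt-3 (0.0967).

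In untreated lines 0 of the 6 passed limma's threshold, where 2.63% of all probe sets were called higher and 4.68% lower in ALCL. Only 1, APOBEC3C, had an unadjusted p below 0.05, and the share of all probe sets at that level was not computed. APOBEC3C differed by 0.81 ± 0.35 there (limma adjusted p = 0.205), a difference as large as in treated lines with a larger spread. APOBEC3G 204205_at was 0.47 ± 0.27 higher in treated ALCL (limma adjusted p = 0.507) and 0.65 ± 0.44 higher in untreated ALCL (limma adjusted p = 0.403), without passing. For the shared probe set 214995_s_at the differences were 0.31 ± 0.18 treated (limma adjusted p = 0.523) and 0.46 ± 0.39 untreated (limma adjusted p = 0.508). APOBEC3F differed by 0.19 ± 0.18 treated and 0.18 ± 0.17 untreated, and APOBEC3A by 0.01 ± 0.11 treated and 0.15 ± 0.11 untreated, all with limma adjusted p of 0.422 or more. The second APOBEC3G probe set, 215579_at, differed by 0.29 ± 0.24 treated (limma adjusted p = 0.694) and 0.45 ± 0.20 untreated (limma adjusted p = 0.224). Median differences of the 6 were 0.30 treated and 0.46 untreated, beside −0.03 and 0.04 for all probe sets. These comparisons use the same arrays as the treatment effects and are not independent of them.

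The members also differed in how their levels ran together over the 16 arrays, given as a description because arrays share lines and treatments. APOBEC3C correlated with 204205_at at r = 0.845 and with the shared probe set at 0.861, and APOBEC3B correlated with APOBEC3C at 0.775 and with 204205_at at 0.746. Over the 8 treatment changes, however, APOBEC3B correlated at 0.178 with APOBEC3C and 0.372 with 204205_at, while APOBEC3C and 204205_at correlated at 0.762.

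Genes whose pattern was most like that of APOBEC3B were sought among 11962 genes. Over the 16 arrays the 5 highest Pearson correlations were those of CYTIP (r = 0.947), TNFRSF8 (0.942), IL2RA (0.940), KDSR (0.937) and ECI1 (0.935). CYTIP encodes a regulator of leukocyte adhesion, TNFRSF8 the CD30 receptor that marks ALCL, and IL2RA the alpha chain of the interleukin-2 receptor. Over the 8 treatment changes the 5 highest were IL2RA (r = 0.982), CYTIP (0.980), MC1R (0.978), LAT2 (0.977) and SLC50A1 (0.968). IL2RA and CYTIP were on both lists. These correlations come from 4 groups of lines with large differences between them, so they carry no p-value.

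In ALCL lines the mean change was −3.20 for CYTIP, −3.25 for TNFRSF8 and −3.08 for IL2RA, near the −2.79 of APOBEC3B, and it was −1.43 for KDSR and −1.89 for ECI1. In T-cell lines it was 0.23 for CYTIP, −0.69 for TNFRSF8, 0.58 for IL2RA, −0.03 for KDSR and 0.02 for ECI1. Because the genes were picked for following APOBEC3B over these same lines, a shared order of lines is built into the choice and is no further evidence. With that limit, Karpas 299 had the smallest ALCL decrease for CYTIP (−0.93), TNFRSF8 (−2.24) and IL2RA (−1.97), as for APOBEC3B. It did not for ECI1, at −2.11 against −1.57 in FE-PD. MC1R, LAT2 and SLC50A1 moved less, with ALCL changes of −0.63, −1.26 and −0.66 and T-cell changes of 0.50, 0.44 and 0.12.

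**Figure D4:**
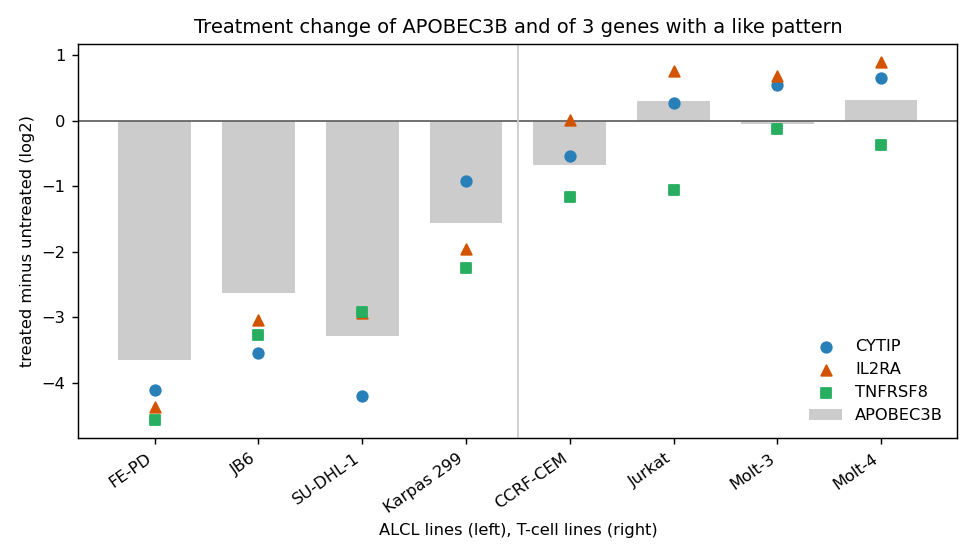
Change in log2 level, treated minus untreated (vertical axis), in each of the 8 lines for APOBEC3B (grey bars) and for CYTIP, IL2RA and TNFRSF8 (symbols), which were picked for their likeness to APOBEC3B over these lines. Karpas 299 lies closest to 0 among the ALCL lines for APOBEC3B (−1.57), CYTIP (−0.93), IL2RA (−1.97) and TNFRSF8 (−2.24).

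Uracil made by APOBEC3 proteins is handled by uracil and abasic-site repair. Of 15 genes of that pathway, 8 fell, 1 rose and 6 did not pass in ALCL lines (median change −0.54), and 9 fell, 1 rose and 5 did not pass in T-cell lines (median −0.69). Beside them, 11.6% of all probe sets fell and 6.69% rose in ALCL lines, and 18.4% fell and 20.4% rose in T-cell lines. In ALCL lines UNG fell by 2.24 ± 0.19 (SE, limma adjusted p = 0.000209), DUT, which clears dUTP before it enters DNA, by 1.96, the flap endonuclease FEN1 by 1.82 and the DNA ligase LIG1 by 1.15. In T-cell lines UNG fell by 0.89 ± 0.19 (limma adjusted p = 0.007), the abasic endonuclease APEX1 by 1.47, FEN1 by 0.97 and the ligase LIG3 by 0.91. POLB, the gap-filling polymerase of base excision repair, was the gene that rose and was named after its values were seen. It rose by 1.03 in ALCL and 0.60 in T-cell lines, and under spike centring these were 0.47 and −0.07, not called. The treatment effect itself differed between the types for UNG (−1.35 ± 0.27, limma adjusted p = 0.0481) and DUT (−1.28 ± 0.21, limma adjusted p = 0.0228), both falling more in ALCL lines. These were the 2 called of 15 for this difference, beside 1.23% of all probe sets called in either direction. Of 18 settings that difference was below 0 in 18 for both genes and called in 7 for UNG and 10 for DUT. The 18 include the fit as reported. For UNG the call was lost without JB6 (limma adjusted p = 0.112), SU-DHL-1 (0.107), Karpas 299 (0.112), Jurkat (0.0886), Molt-3 (0.142) or Molt-4 (0.145). For DUT it was lost without SU-DHL-1 (0.0556), CCRF-CEM (0.0528), Molt-3 (0.101) or Molt-4 (0.062). With no block neither was called (limma adjusted p = 0.137 for UNG and 0.0573 for DUT), and median centring ended the call of UNG (0.0771). Under spike centring the differences were −1.242 for UNG and −1.165 for DUT, not called. In treated lines UNG (−1.80), FEN1 (−1.37) and DUT (−1.24), 3 of 15, were lower in ALCL, calls lost under spike centring. Of all probe sets, 1.17% were called lower and 1.10% higher in treated ALCL. In untreated lines POLB (−0.98) and LIG3 (−0.52), 2 of 15, were lower in ALCL, where 4.68% of all probe sets were called lower and 2.63% higher. UNG differed by −0.45 ± 0.26 in untreated lines (limma adjusted p = 0.333). Spike centring also ended the calls of POLB and LIG3 there.

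Genes of the DREAM complex, B-MYB and E2F set the cell-cycle timing of transcription and are known to act on APOBEC3B in other cells. The list also held CDKN1A, an inhibitor of cell-cycle kinases. Of 15 measured of 19 listed, 5 fell and 1 rose in ALCL lines (median −0.12). In T-cell lines 9 fell and 1 rose (median −0.64). The shares of all probe sets were 11.6% falling and 6.69% rising in ALCL, and 18.4% falling and 20.4% rising in T-cell lines. MYBL2, which encodes B-MYB, fell by 1.72 ± 0.16 in ALCL (limma adjusted p = 0.000318) and by 0.90 ± 0.16 in T-cell lines (limma adjusted p = 0.00282). The mitotic factor FOXM1 fell by 1.61 in ALCL and 1.69 in T-cell lines, and the E2F partner TFDP1 by 1.92 in ALCL and 1.15 in T-cell lines, the last of these −0.72 and not called after quantile normalization. CDKN1A, the p21 inhibitor of cell-cycle kinases, was the gene that rose, by 1.55 ± 0.30 in ALCL (limma adjusted p = 0.00713) and 1.44 ± 0.30 in T-cell lines (limma adjusted p = 0.0061). Under spike centring its changes were 0.99 and 0.77, not called. The difference of treatment effects was −0.82 ± 0.22 for MYBL2 (limma adjusted p = 0.144), not past the threshold. In treated lines CDKN1A was higher in ALCL by 2.10 and MYBL2 lower (−0.89, limma adjusted p = 0.0322). That was 1 of 15 each way, beside 1.10% of all probe sets called higher and 1.17% lower. In untreated lines RB1 (−2.09), TFDP2 (−1.98), RBBP4 (−1.02) and FOXM1 (−0.99) were lower in ALCL, 4 of 15 with 0 higher. There 4.68% of all probe sets were called lower and 2.63% higher. Spike centring ended the calls of MYBL2, RBBP4 and FOXM1. CDKN1A was already 1.99 higher in untreated ALCL, not called as deposited and called under spike centring (2.29, limma adjusted p = 1.77e-06).

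Of 13 measured NF-kB subunits and targets, 5 were higher and 0 lower in untreated ALCL lines (median difference 0.74). There 2.63% of all probe sets were called higher and 4.68% lower. NFKBIA, the inhibitor that NF-kB itself induces, was higher by 1.89, RELB, the subunit of the non-canonical pathway that is known to drive APOBEC3B in other cells, by 1.43 ± 0.35 (limma adjusted p = 0.0464), the adhesion molecule ICAM1 by 1.32 and the kinase MAP3K14 by 0.76, the last not called after quantile normalization or spike centring. In treated lines 0 of 13 passed and the median was 0.44, with RELB at 0.84 ± 0.47 (limma adjusted p = 0.492). Of all probe sets, 1.10% were called higher and 1.17% lower in treated ALCL. Treatment changed 0 of 13 in ALCL lines (median 0.15), where 6.69% of all probe sets rose and 11.6% fell. RELB differed there by −0.10 ± 0.17 (limma adjusted p = 0.711). By line its change was −0.57 in FE-PD, −0.21 in JB6, −0.185 in SU-DHL-1 and 0.57 in Karpas 299. The part of NF-kB in the APOBEC3B change was not tested. In T-cell lines TRAF1, MAP3K14 and CD40 rose by 0.80, 0.77 and 0.69 and IKBKB fell by 0.68 (median 0.36), and RELB differed by 0.49 ± 0.17 (limma adjusted p = 0.0501). Of all probe sets, 20.4% rose and 18.4% fell in T-cell lines. The 3 NF-kB rises were at most 0.14 under spike centring. Other scalings gave 1 call in ALCL lines, ICAM1 higher after quantile normalization (0.96) and NFKB1 lower after median (−0.89) or spike centring (−1.39), and spike centring called NFKBIA and ICAM1 higher in treated ALCL (2.98 and 1.92). These genes were named after their values were seen.

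Interferon-response genes, among which several APOBEC3 genes are counted in other cells, went in both directions. Of 28 measured of 30 listed, 6 rose and 3 fell in ALCL lines (median 0.06), and 3 rose and 8 fell in T-cell lines (median −0.22). Among all probe sets 6.69% rose and 11.6% fell in ALCL lines, and 20.4% rose and 18.4% fell in T-cell lines. In ALCL lines IFI27 rose by 2.06, the ubiquitin-like ISG15 by 1.70 and the antiviral enzyme RSAD2 by 1.46, and TRIM22 fell by 1.48. In T-cell lines the transcription factor IRF7 rose by 2.10, and TRIM22, IFI35 and IFI44 fell by 2.23, 1.40 and 1.24. Spike centring left 2 rising and 4 falling in ALCL and 1 rising and 10 falling in T-cell lines. In treated lines IFI35, BST2 and OASL were higher in ALCL by 2.30, 2.22 and 1.36 with 0 lower (median 0.35). In untreated lines 4 were higher and 1 lower in ALCL (median 0.23), led by IFI35 (1.88), IRF9 (1.56) and BST2 (1.40), with OAS3 lower (−1.39). Over all probe sets 2.63% were called higher and 4.68% lower in untreated ALCL, and 1.10% and 1.17% in treated ALCL. The call of OASL was lost after quantile normalization, and those of RSAD2 in ALCL lines and OAS3 in untreated lines under spike centring.

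Of 10 other deaminases of nucleic acids, 5 had a probe set of their own. ADARB1, an adenosine deaminase that edits RNA, rose by 0.73 in ALCL lines (limma adjusted p = 0.0451) and 0.93 in T-cell lines (limma adjusted p = 0.0108). In T-cell lines ADAR, the interferon-linked editor, fell by 0.97 (limma adjusted p = 0.00338) and APOBEC1, the cytidine deaminase known for editing RNA in the gut, rose by 0.41 (limma adjusted p = 0.0389). The ALCL call of ADARB1 and that of APOBEC1 were lost under all 3 other scalings, and spike centring also ended the T-cell call of ADARB1 and turned APOBEC1 to −0.26. With treatment, 6.69% of all probe sets rose and 11.6% fell in ALCL lines, and 20.4% rose and 18.4% fell in T-cell lines. The list's median change was 0.08 in ALCL and 0.01 in T-cell lines, and 0 of 5 passed limma's threshold between ALCL and T-cell lines, treated or untreated. Of all probe sets, 1.10% were called higher and 1.17% lower in treated ALCL, and 2.63% and 4.68% in untreated ALCL. ADAT1, a deaminase of transfer RNA, was called lower in untreated ALCL after quantile normalization (−0.84, limma adjusted p = 0.0344) or median centring (−0.98, 0.0343), beside −0.94 as deposited.

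The APOBEC3 genes form an unbroken row on chromosome 22 in RefSeq, between CBX6 and CBX7, in the order APOBEC3A, APOBEC3B, APOBEC3C, APOBEC3D, APOBEC3F, APOBEC3G and APOBEC3H. The 2 flanking genes, both encoding Polycomb chromobox proteins, did not pass the threshold. CBX6 differed by 0.10 ± 0.14 in ALCL (limma adjusted p = 0.623) and 0.31 ± 0.14 in T-cell lines (limma adjusted p = 0.101), and CBX7 by 0.37 ± 0.13 in ALCL (limma adjusted p = 0.0842) and 0.27 ± 0.13 in T-cell lines (limma adjusted p = 0.134). After quantile normalization CBX6 was called in T-cell lines (0.78, limma adjusted p = 0.0118). Of 19 measured neighbours on both sides, 1 rose and 2 fell in ALCL lines (median 0.02), and 4 rose and 3 fell in T-cell lines (median 0.17), beside 6.69% rising and 11.6% falling in ALCL and 20.4% rising and 18.4% falling in T-cell lines over all probe sets. The neighbours' shares are near these backgrounds. The mitochondrial import receptor TOMM22 fell by 1.08 in ALCL and 1.43 in T-cell lines, the stress factor ATF4 fell by 1.22 in ALCL lines, and KDELR3 rose by 0.59 in ALCL and 0.83 in T-cell lines. Spike centring left 0 rising in either type and turned PDGFB, which rose by 0.53 in T-cell lines, to −0.14, and quantile normalization ended the call of ATF4 (−0.95, limma adjusted p = 0.0641). Between ALCL and T-cell lines 0 of 19 passed limma's threshold, treated or untreated. Over all probe sets 1.10% were called higher and 1.17% lower in treated ALCL, and 2.63% and 4.68% in untreated ALCL. Whether the region has a part in the APOBEC3B pattern was not tested.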

How the data were processed

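Total RNA of 8 cell lines, untreated and treated, was hybridised to 16 HG-U133A arrays. The deposited values are log2 expression levels, which the authors made with RMA (R version 2.10.1, as listed in the submitters' processing notes). RMA corrects background and normalizes probes before summarising them, which compresses changes of dim probe sets. The table held 22283 probe sets, and 22215 were tested after 68 controls were left out. Values ran from 3.36 to 14.4, and array medians from 6.78 to 6.96. No scanner file or detection call was used, and the number of arrays limits precision.

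Symbols came from the platform annotation (19071 probe sets with 1 symbol, 1043 with several, 2107 with none), and gene order from RefSeq GRCh38.p14. Groups came from the labels.

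Treatment effects and their difference came from 1 fit of all 16 arrays in limma 3.58.1 (R 4.3.3) with cell line as a block, 6 residual degrees of freedom. The ALCL and T-cell comparisons were fitted on the 8 treated or the 8 untreated arrays. Tests were two-sided, with Benjamini-Hochberg adjustment over all probe sets and a threshold of 0.05. The script was tested on simulated data. The line pairs the arrays, since the same line was read in both conditions. A treated array's deviations from its group mean correlated with those of the same line untreated at 0.314 to 0.632. Each was above its correlation with any other untreated line of the same type (0.383 at most, for Molt-3, against 0.412 with itself). Deviations from a mean of 4 lines push the correlations with other lines down, so part of that gap is built in.

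The members and gene lists were chosen with earlier results of these data known. Lists used each gene's single-symbol probe set of highest mean. Named from each list were at most 4 called genes with the largest change per comparison, plus RELB, MYBL2, CDKN1A, UNG, CBX6 and CBX7. POLB as the rising repair gene was named after its values were seen. Alternatives were no block, a random block, 1 cell type alone, 4 group means, a filter on the lowest 40%, 1 probe set per gene, 3 scalings, each line left out, and lines split by the 28S control.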

Additional observations from a re-analysis of the deposited data

Results flagged for a closer look

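In 42 groups of 4 values (member levels and treatment changes), 5 had 1 line far from the other 3, with its gap to the nearest value past Dixon's 95% critical value. Chance gives about 1 in 20 such groups. APOBEC3B in untreated T-cell lines was high in CCRF-CEM, at 6.41. APOBEC3C in untreated T-cell lines was low in Jurkat, at 6.04, and its treatment change was accordingly smallest there, at −0.13. The probe set shared by APOBEC3F and APOBEC3G was low in treated Jurkat, at 5.91. The second APOBEC3G probe set, 215579_at, was high in treated JB6 among ALCL lines, at 8.63.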

How the results depend on the processing

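Over the alternatives, 330 of 384 tested member results kept their direction and side of the threshold, 32 lost the call, 8 gained it and 14 changed sign, none of them called either way. In T-cell lines APOBEC3A (0.11 as reported) was −0.036 with quantile normalization, −0.0073 with median centring and −0.56 with spike centring, under which APOBEC3G 215579_at was −0.43 in ALCL and −0.37 in T-cell lines. In the 3 lines without the 28S rise the ALCL change of APOBEC3F was 0.084, its untreated ALCL minus T-cell difference −0.082 and the treated one of APOBEC3A −0.084, and in the 5 lines with the rise the ALCL change of APOBEC3A was 0.028. With a line left out APOBEC3A ran from −0.12 to 0.033 in ALCL lines and from −0.017 to 0.042 between treated lines. The count of called member probe sets in ALCL lines, 2 as reported, was 1 with no replicate block, 1 in a fit of 1 cell type alone, 1 with 1 probe set per gene (3 member probe sets present), 0 in the 3 lines without the 28S rise and 1 in the 5 lines with it, and 1 to 3 with a line left out. The T-cell count, 3 as reported, was 1 with 1 probe set per gene, 0 in the 3 lines and 1 in the 5 lines, and 1 to 3 with a line left out. The count between treated ALCL and T-cell lines, 1 as reported, was 0 with 4 group means, 0 with spike centring, 0 in the 3 lines and 0 in the 5 lines, and 0 to 1 with a line left out. The count between untreated lines stayed at 0 in 16 of 16. With 1 probe set per gene, APOBEC3G is read by 215579_at, which removes its fall. The subsets of 3 and 5 lines hold fewer arrays. The APOBEC3B difference of changes, −2.76, kept its sign in 16 of 16. It ran from −3.33 to −1.37 (the smaller size in the 3 lines without the 28S rise), and from −3.16 to −2.47 with a line left out. That difference chose the family, so its sign over the same arrays is a description and no further evidence. Other causes were not tested. Over all probe sets the number called ranged from 0 to 4436 in ALCL (4072 as reported), 2279 to 9596 in T-cell lines (8607), 0 to 274 for the difference (274), 148 to 869 between treated (505) and 0 to 1986 between untreated lines (1625). Levels near the bottom of an array limit what a fall can show.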
